A study of Homo sapiens with 4 samples.

Results

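The strengthened distal regions are stretches of open chromatin, away from any annotated transcription start, that were listed as peaks both with and without induced TAZ and had the higher summit with it. They were chosen by the fold enrichment of the peaks themselves. Peaks listed with Dox and peaks listed without it were merged wherever they overlapped or touched, on chromosomes 1 to 22 and X. A merged region was a member when it held peaks of both lists, lay more than 3 kb from every GENCODE release 44 start site, and had a highest Dox fold at least 2 times its highest No Dox fold. Of 149858 merged regions, 48557 were shared by both lists and 28193 of these were distal. The rule took 1052 of the 28193, or 3.73% of the shared distal regions. The opposite rule, a No Dox fold at least 2 times the Dox fold, took 1203 weakened regions, or 4.27%, and left 25938 regions between the thresholds. The 27141 shared distal regions that are not members are called the remaining regions.

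The cells were MCF10A, a non-transformed human mammary epithelial line, transduced with a doxycycline-inducible TAZ-4SA construct. TAZ-4SA carries serine-to-alanine changes that free TAZ from inhibition by the Hippo kinases, so it stands for a constitutively active and not for the endogenous protein. The Dox group (2 replicates) received 0.05 µg/mL doxycycline for 72 h, and the No Dox group (2 replicates) carried the same construct and received none. Both groups grew in medium with serum, EGF, hydrocortisone, cholera toxin and insulin, and 50000 cells went into each ATAC reaction, in which a transposase inserts adapters into accessible DNA. The replicates of a group had been pooled before peaks were called, so no spread between replicates could be measured. Doxycycline itself and TAZ-4SA cannot be told apart in this pair of groups.

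TAZ, encoded by WWTR1, is a transcriptional coactivator that the Hippo pathway keeps out of the nucleus, and it has no DNA-binding domain of its own. It reaches DNA mainly through the TEAD factors, which bind the word CATTCC with an A or a G before it, most often at enhancers far from promoters. Many of these enhancers also hold sites of AP-1, the family of FOS and JUN dimers, and the genes that they are linked to act in growth, cytoskeleton and matrix signalling.

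Sequences around the strongest Dox summits show how these regions look. The 3 regions of highest fold ratio with a TEAD word within 50 bp of the summit are given first, then a region of each of 4 YAP/TAZ target genes that holds a TEAD word, then the region of highest ratio with an AP-1 word and no TEAD word. Each is the plus strand of hg38, 121 bases centred on the summit and named by the coding gene with the nearest start, with TEAD words (ACATTCC or GCATTCC, or their reverse complements GGAATGT and GGAATGC) or AP-1 words (TGACTCA or TGAGTCA) in capitals.
ROR1 region (chr1:63920758-63920878): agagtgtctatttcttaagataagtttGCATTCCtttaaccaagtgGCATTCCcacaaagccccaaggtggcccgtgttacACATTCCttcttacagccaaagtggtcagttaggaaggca
RAB28 region (chr4:13322783-13322903): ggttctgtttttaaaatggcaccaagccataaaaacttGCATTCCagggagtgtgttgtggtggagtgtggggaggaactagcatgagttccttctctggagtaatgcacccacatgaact
SCYL3 region (chr1:169934605-169934725): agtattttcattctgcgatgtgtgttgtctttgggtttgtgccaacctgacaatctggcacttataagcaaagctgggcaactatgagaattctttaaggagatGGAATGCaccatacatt
ANKRD1 region (chr10:90931085-90931205): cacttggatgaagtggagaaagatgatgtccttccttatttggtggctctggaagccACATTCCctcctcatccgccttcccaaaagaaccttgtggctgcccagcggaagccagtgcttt
NUAK2 region (chr1:205298608-205298728): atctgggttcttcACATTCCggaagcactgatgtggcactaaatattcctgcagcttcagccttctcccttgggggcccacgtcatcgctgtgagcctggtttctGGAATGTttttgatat
TGFB2 region (chr1:218351057-218351177): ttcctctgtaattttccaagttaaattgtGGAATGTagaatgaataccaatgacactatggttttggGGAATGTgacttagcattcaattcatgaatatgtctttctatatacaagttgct
NT5E region (chr6:85458846-85458966): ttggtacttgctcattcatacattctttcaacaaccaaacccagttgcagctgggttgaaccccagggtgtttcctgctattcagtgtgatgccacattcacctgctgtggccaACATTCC
PRDX6 region (chr1:173424966-173425086): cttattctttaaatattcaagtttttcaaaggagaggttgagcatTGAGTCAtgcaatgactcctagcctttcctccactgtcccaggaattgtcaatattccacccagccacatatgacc

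The stretch in the first intron of ROR1, a receptor of Wnt ligands, held 3 TEAD words in the same orientation, at 30 and 11 bp to the left of the summit and 24 bp to its right. In the ANKRD1 stretch the TEAD word lay at the summit itself. The NUAK2 and TGFB2 stretches held 2 TEAD words each, in opposite orientation in the NUAK2 stretch and in the same orientation in the TGFB2 stretch. The PRDX6 stretch held an AP-1 word 12 bp from the summit. The single TEAD words of the RAB28 and NT5E stretches lay 19 and 57 bp from their summits.

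By construction the members had strong summits with Dox and weak ones without it. The median fold of a member was 10.4 in Dox (range 5.20 to 35.7) and 4.02 in No Dox (range 2.54 to 14.0), against medians of 4.52 in Dox and 4.87 in No Dox over the remaining regions. The strongest Dox peak had a median width of 869 bp and the strongest No Dox peak 518 bp, and the Dox peak was the wider of the pair in 83.6% of members and in 33.0% of the remaining regions. Most members lay close to the threshold. A ratio of 2 to 2.5 was seen in 585 members (55.6%), 2.5 to 3 in 234, 3 to 4 in 159 and 4 or more in 74, with a highest ratio of 6.70. The members just inside the threshold had a Dox fold of 6.78 and a No Dox fold of 3.39, and the regions just outside it had 9.72 in Dox and 4.87 in No Dox. Over all shared distal regions the median ratio was 0.953, with 5% of regions below 0.518 and 5% above 1.84.

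**Figure D1:**
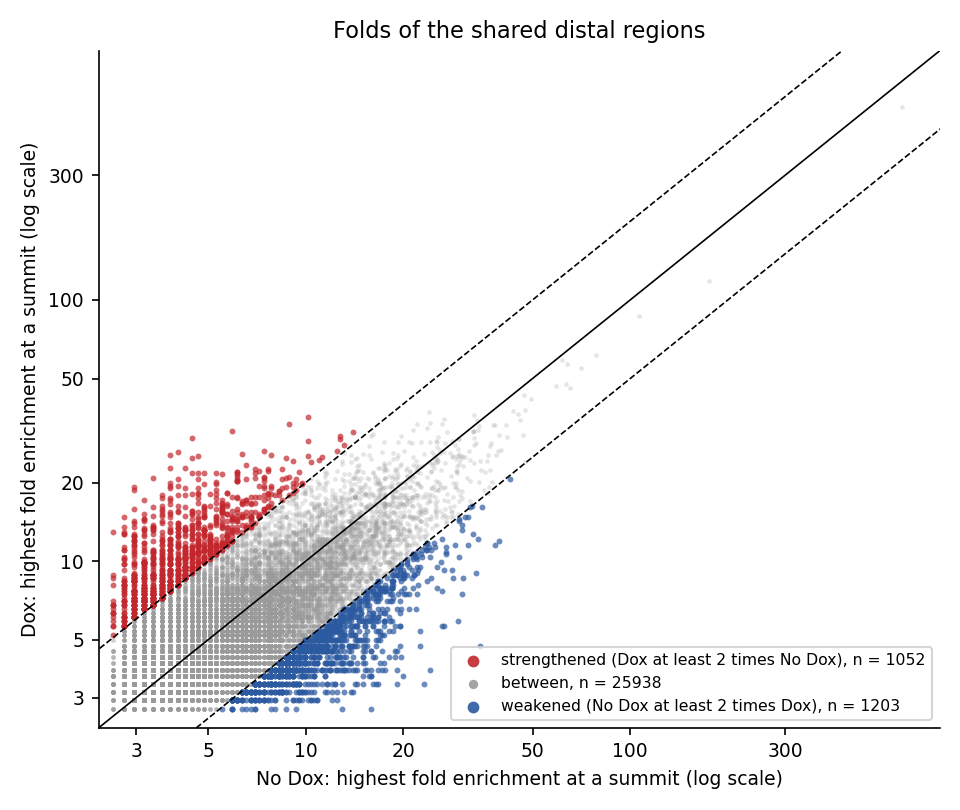
Highest fold enrichment at a summit in the Dox list (vertical, log scale) against the No Dox list (horizontal, log scale) for the 28193 shared distal regions, 1 point a region. The solid line marks equal folds and the dashed lines a ratio of 2 in either direction. Members (red) reach a Dox fold of 35.7 but no No Dox fold above 14.0, and the regions with folds of 50 or more in both lists all lie between the dashed lines.

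Small counts stood behind the No Dox folds of the members. All folds were whole multiples, within 0.01 of a step, of a step of 0.226 in the Dox list and 0.212 in the No Dox list, and the lowest fold listed was 12 of these steps in both. The median member stood at 46 steps in Dox and 19 in No Dox. If 1 step stands for 1 fragment, and the 1 that the peak caller adds to the signal is taken off, this was a pile-up of 45 fragments in Dox (exact Poisson 95% interval 32.8 to 60.2, or folds of 7.65 to 13.8) and 18 in No Dox (10.7 to 28.4, or folds of 2.47 to 6.24). These intervals cover counting error only. A region whose No Dox summit stayed under 12 steps was not listed there and was not shared, so the rule could not reach it.

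The word of the TEAD factors was more frequent in the strengthened regions. Within 100 bp of the strongest Dox summit, 418 of 1052 strengthened regions (39.7%, exact Clopper-Pearson 95% interval 36.8 to 42.8) held ACATTCC or GCATTCC on either strand. The share was 12.1% (11.7 to 12.5) in the 27141 remaining regions, 12.4% in the regions between the thresholds and 6.32% (5.01 to 7.84) in the weakened regions. Windows of the same length around the summits of all 149858 merged regions held it in 9.0%. The strengthened share was 3.29 times that of the remaining regions, a difference of 27.6 percentage points. The letters of the sequence were not used to choose the members, but each window was centred on the Dox summit, whose fold the rule used. The intervals treat regions as separate draws and cover counting error only, because 1 pooled list per group gives no error between replicates.

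Reversed words and windows away from the Dox summit gave lower shares. The reversed word, CCTTACA or CCTTACG, has the same base composition, although its second form holds a CG pair, which is rare in the genome. It was held by 3.9% (2.81 to 5.25) of strengthened, 2.18% (2.01 to 2.37) of remaining and 2.66% (1.83 to 3.73) of weakened regions. The reversed word was thus also more frequent in strengthened than in remaining regions, with intervals that did not overlap, by a smaller gap than the TEAD word. In a flank 200 to 400 bp to the left of the Dox summit, a window chosen after the summit shares were seen, the TEAD words were held by 7.51% (5.99 to 9.27) of strengthened and 5.78% (5.51 to 6.07) of remaining regions. Around the strongest No Dox summit the shares were 29.0% of strengthened and 10.4% of remaining regions.

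**Figure D2:**
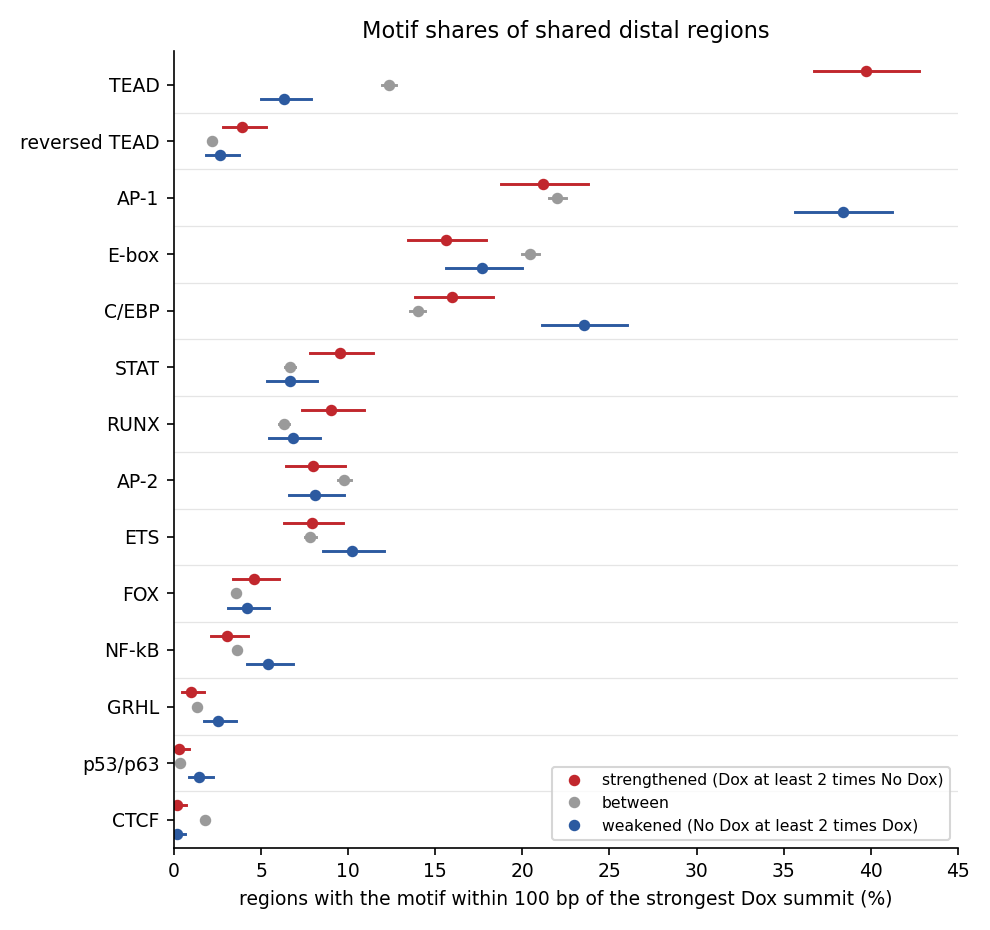
Share of shared distal regions (horizontal, %) that hold each motif (rows) within 100 bp of the strongest Dox summit, for strengthened (red), between (grey) and weakened (blue) regions, with exact 95% intervals as lines. The TEAD share is 39.7% in strengthened regions against 12.4% between the thresholds, whereas the AP-1 share is highest in the weakened regions, at 38.4%.

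The TEAD share climbed along the fold ratio, also among regions that did not reach the threshold. It was 4.74% of 401 regions with a ratio under 0.4, 9.64% of 7366 with a ratio of 0.8 to 1, 19.3% of 2933 at 1.25 to 1.5 and 27.3% of 1864 at 1.5 to 2. Within the members it was 35.9% (32.0 to 39.9) at 2 to 2.5 and 46.2% (39.6 to 52.8) at 2.5 to 3. Beyond that it did not climb further: 43.4% (35.6 to 51.5) at 3 to 4 and 41.9% (30.5 to 53.9) at 4 or more, with overlapping intervals. AP-1 words went the other way among the members, with 25.6% (22.1 to 29.4) at a ratio of 2 to 2.5 and 6.76% (2.23 to 15.1) at 4 or more, where 5 of 74 regions held one. Among the weakened regions the AP-1 share was 38.7% at a ratio of 0.4 to 0.5 and 37.9% under 0.4.

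**Figure D3:**
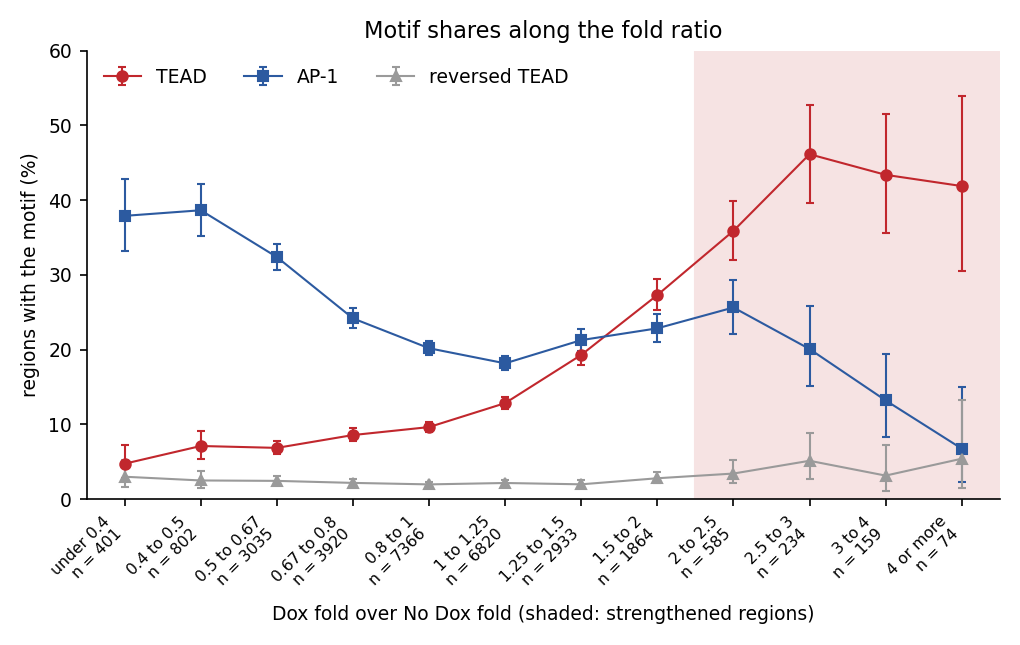
Share of shared distal regions (vertical, %) with a TEAD, AP-1 or reversed TEAD word within 100 bp of the Dox summit, by bins of the Dox over No Dox fold ratio (horizontal, with the number of regions), with exact 95% intervals as bars. TEAD words climb to 46.2% at a ratio of 2.5 to 3, and AP-1 words drop to 6.76% at 4 or more. The reversed word is held by 1.97% of regions at a ratio of 0.8 to 1, 3.42% at 2 to 2.5 and 5.41% at 4 or more.

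Peak strength differs between the sets by the rule, so the shares were also read within strata of each fold. Among regions with a No Dox fold under 4, the TEAD share was 38.7% in strengthened and 10.1% in between regions, and at a No Dox fold of 4 to 6 it was 42.0% in strengthened and 12.1% in between regions. At a No Dox fold of 8 to 12, which held 30 members, it was 33.3% (17.3 to 52.8) in strengthened and 14.1% (12.9 to 15.4) in between regions. The share also climbed with the Dox fold alone, with 6.76% of the between regions under a Dox fold of 4. Among regions with a Dox fold of 8 to 12 it was 39.7% (35.2 to 44.4) in strengthened and 21.9% (20.3 to 23.5) in between regions. At a Dox fold of 12 to 20 it was 44.2% in strengthened and 22.1% in between regions. The intervals did not overlap in any of these strata of members and between regions. They overlapped at a Dox fold of 4 to 6, where 4 of 15 strengthened regions (7.79 to 55.1) and 11.7% of between regions held the word, and at a No Dox fold of 12 to 20, where 2 of 5 strengthened regions (5.27 to 85.3) and 16.4% (14.5 to 18.5) of between regions did. At a Dox fold of 20 or more they also overlapped, at 40.7% (28.1 to 54.3) of 59 strengthened and 26.0% (20.3 to 32.4) of 219 between regions.

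Base composition also differed between the sets. The median GC content of the windows was 43.8% in strengthened and 48.3% in remaining regions. In windows under 40% GC the TEAD share was 31.6% in strengthened and 14.0% in between regions, and at 50 to 60% GC it was 44.1% in strengthened and 10.7% in between regions. The strengthened share was the higher one in each of the 5 GC strata. The GC strata were set after the shares over all regions were known.

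TEAD words lay close to the summit. The strengthened regions held 488 of them, of which 277 had the A form and 211 the G form, at a median distance of 38 bp from the Dox summit, and 64.8% lay within 50 bp. The 3539 words of the remaining regions had a median distance of 42 bp, with 58.7% within 50 bp. Words per 100 regions were highest 20 to 30 bp from the summit in both sets, with 7.03 in strengthened and 1.78 in remaining regions. At 90 to 100 bp there were 2.38 in strengthened and 0.899 in remaining regions.

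**Figure D4:**
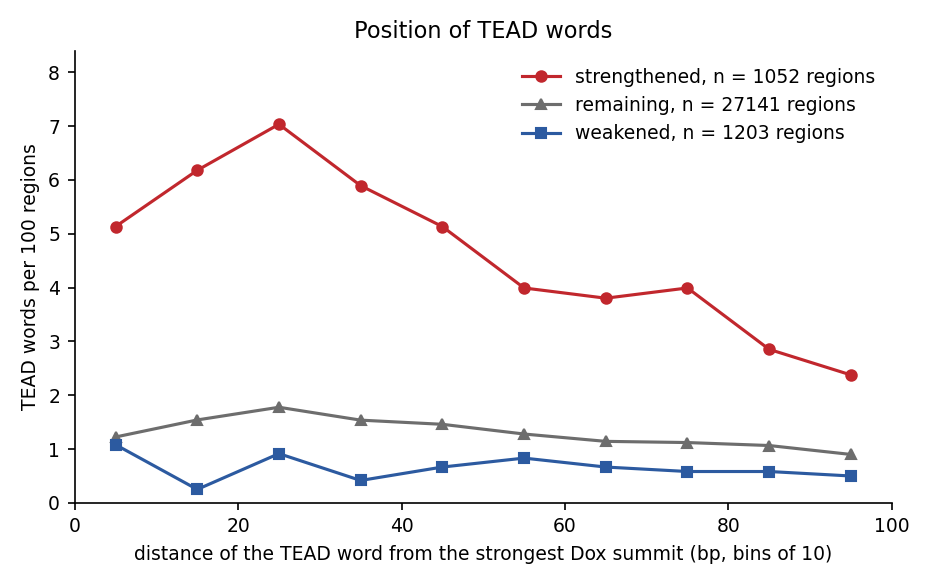
TEAD words per 100 regions (vertical) against the distance from the strongest Dox summit (horizontal, bp, bins of 10), for strengthened (red), remaining (grey) and weakened (blue) regions. Strengthened regions reach 7.03 words per 100 regions at 20 to 30 bp and stay above both other sets in every bin.

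Repeated TEAD words were rare in every set, and the strengthened set had the highest share of regions with them. At least 2 words stood in 64 strengthened regions (6.08%, 4.72 to 7.70), in 242 remaining regions (0.892%, 0.783 to 1.01) and in 2 of 1203 weakened regions (0.166%). The 77 pairs in strengthened regions had 65 distinct combinations of spacing and orientation, and the most frequent one was seen 3 times, so no single spacing stood out. Among the 5 members with 3 or more words were the ROR1 region and an intronic region of CELF4, an RNA-binding protein. The single member with 4 words, chosen here after its values were seen, lay 550 kb upstream of CA10, with a Dox fold of 13.3 and a No Dox fold of 4.02.

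Counts of all short words led to the same sequence without a preset motif. Of 2080 words of 6 letters, each counted with its reverse complement, CATTCC had the largest gap, at 49.0% of strengthened and 19.5% of remaining regions. Each of the next 5 by gap, led by AGGAAT with 45.2% of strengthened and 18.7% of remaining regions, shares 5 letters with that word or its complement, so their counts are not separate findings. At the other end stood AGCCAG, with 16.0% of strengthened and 24.1% of remaining regions. Among 8192 words of 7 letters, AGGAATG led with 25.7% of strengthened and 8.58% of remaining regions. The next was ACATTCC, with 23.7% of strengthened and 6.99% of remaining regions.

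Several variants of the word were more frequent in strengthened than in remaining regions that lacked the word itself. In the 634 strengthened regions with no TEAD word, the variant AAATTCC was found in 18.9% (15.9 to 22.2), against 5.75% of the 23860 remaining regions without the word. ACATTCT was found in 12.8% of strengthened and 5.03% of remaining regions, and GAATTCC in 10.1% of strengthened and 3.47% of remaining regions. The variant GCATTCT was found in 9.46% of strengthened and 3.63% of remaining regions. These 4 words differ from a TEAD word by 1 letter. Of the 38 one-letter variants counted, further ones were also the more frequent in strengthened regions, such as ACATACC with 7.10% of strengthened and 2.42% of remaining regions. Others differed little, such as ACACTCC with 3.47% of strengthened and 3.31% of remaining regions, or went the other way, such as GCCTTCC with 3.63% of strengthened and 5.16% of remaining regions. The word counts and variants were chosen after the TEAD shares were seen, and a match is not evidence of binding.

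AP-1 words were about as frequent in strengthened as in other shared distal regions. They stood in 223 of 1052 strengthened regions (21.2%, 18.8 to 23.8), in 22.7% (22.2 to 23.2) of remaining regions and in 38.4% (35.6 to 41.2) of weakened regions. How this reads depended on the strength held equal. At a Dox fold of 8 to 12 the AP-1 share was 22.5% in strengthened and 37.3% in between regions, whereas at a No Dox fold under 4 it was 19.7% in strengthened and 10.3% in between regions. TEAD and AP-1 words shared a window in 7.60% (6.08 to 9.38) of strengthened and 2.62% (2.44 to 2.82) of remaining regions. Within the strengthened set, AP-1 words stood in 19.1% (15.5 to 23.2) of regions with a TEAD word and 22.6% (19.4 to 26.0) of regions without one, with overlapping intervals. Neither word was found in 46.7% of strengthened and 67.8% of remaining regions.

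Among the other motifs the gaps were small. RUNX words (TGTGGTT), bound by factors of blood, bone and epithelial development, stood in 9.03% (7.37 to 10.9) of strengthened and 6.33% (6.04 to 6.62) of remaining regions. STAT words (TTCNNNGAA), of cytokine signalling, stood in 9.51% (7.80 to 11.4) of strengthened and 6.64% (6.35 to 6.95) of remaining regions. The CAGGTG box read by SNAIL and ZEB repressors went the other way, with 15.6% (13.4 to 17.9) of strengthened and 20.3% (19.9 to 20.8) of remaining regions. CTCF sites, which mark boundaries of chromatin loops, were found in 2 strengthened regions (0.190%, 0.0230 to 0.685) and 1.69% of remaining regions, and were as rare in the weakened ones, at 0.166%. C/EBP words (TTGCNNAA) stood in 16.0% of strengthened, 14.4% of remaining and 23.5% of weakened regions. The shares in windows of the same length over all merged regions were 4.77% for RUNX, 5.92% for STAT, 19.9% for CAGGTG and 11.6% for C/EBP.

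By annotation class and by distance to the nearest start site, the strengthened regions were like other shared distal regions. Of the members, 40.7% (37.7 to 43.7) were distal intergenic, 27.1% lay in first introns and 26.4% in other introns, 3.61% touched an exon and 2.19% a UTR. Of the remaining regions, 42.1% were distal intergenic, 26.1% lay in first introns and 25.2% in other introns, 4.13% touched an exon and 2.49% a UTR. The median distance to the nearest start site was 20.7 kb in strengthened and 20.0 kb in remaining regions, and 72.6% of members were more than 10 kb away. Summits of the 2 lists lay within 100 bp of each other in 57.4% of strengthened, 56.4% of remaining and 68.3% of weakened regions. In 25.4% of members they lay more than 200 bp apart, so that the Dox and No Dox folds were read at different places of the merged region.

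Most members had no other member within 100 kb. Another member lay within 10 kb of 54 members (5.13%) and within 100 kb of 194 (18.4%), and the median distance to the nearest other member was 633 kb. No set of equal size was counted, so these values do not show whether members were more or less scattered than other regions. A region listed in Dox only lay within 10 kb of 29.8% (27.0 to 32.6) of strengthened, 34.4% (33.8 to 34.9) of remaining and 24.0% (21.6 to 26.5) of weakened regions. A region listed in No Dox only lay within 10 kb of 43.4% (40.4 to 46.5) of strengthened, 53.6% of remaining and 51.3% (48.4 to 54.1) of weakened regions. Peaks were unevenly spread over chromosomes, and chromosomes 1, 5 and 8 held 43.7% of the shared distal regions. Of these 2.93% (2.64 to 3.24) were strengthened, against 4.36% (4.04 to 4.68) elsewhere. Without these 3 chromosomes 691 members were left, and a Dox-only region lay within 10 kb of 21.9% of strengthened and 22.5% of remaining regions, with overlapping intervals. A No-Dox-only region then lay within 10 kb of 33.7% (30.2 to 37.4) of strengthened and 38.1% (37.3 to 38.9) of remaining regions. The TEAD share was then 37.6% in strengthened and 13.9% in remaining regions. Single chromosomes had strengthened shares of 1.32% (chromosome 22, 2 of 152 regions) to 5.96% (chromosome 4, 82 of 1376).

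Genes were attached to regions by the nearest start of a coding transcript within 100 kb, which names neighbours and not targets. By this rule 567 members went to 519 genes, of which 477 had a single one. YAP/TAZ target genes, a list of 24 genes chosen with earlier results of these data known, had 13 strengthened regions among their 106 shared distal regions (12.3%, 6.69 to 20.1), at 10 genes, and no weakened region. Over all genes the same share was 567 of 16114 regions, or 3.52%. The median ratio over the 106 regions was 1.09, and over all regions attached to a gene 0.960. Of these 13 regions, 7 held a TEAD word and none an AP-1 word. Among all members attached to a gene, 229 of 567 held a TEAD word, and 21.2% of all 1052 members held an AP-1 word. The 13 regions are too few to tell their counts apart from these shares.

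The strongest of them by ratio lay 9.10 kb upstream of ANKRD1, a transcriptional cofactor that serves as a standard readout of YAP and TAZ. Its Dox fold was 12.7 and its No Dox fold 2.75, and the strongest summits lay 830 bp apart. Within 50 kb of the ANKRD1 start there were 7 Dox and 3 No Dox peaks. NUAK2, a kinase of the AMPK family that acts on actomyosin, had 2 strengthened regions. The outer one, 22.6 kb downstream of the start, had folds of 12.2 in Dox and 3.81 in No Dox, and the inner one, 19.3 kb downstream, 16.0 in Dox and 7.84 in No Dox. Around this gene 34 Dox and 14 No Dox peaks lay within 50 kb, and overlapping peaks differed in both directions. The strongest No Dox peak, with its summit 36.9 kb downstream, had a fold of 19.1, and the Dox peak over it 12.2. The Dox peak with its summit 27.2 kb downstream had 8.36, and the No Dox peak that overlapped it 4.66.

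TGFB2, a ligand of the TGF-beta receptors, had a strengthened region in its first intron with a Dox fold of 8.14 and a No Dox fold of 2.75. Its receptor gene TGFBR2 had an intronic one with a Dox fold of 7.23 and a No Dox fold of 3.18 and no TEAD word. NT5E, which encodes CD73, the enzyme that makes adenosine outside the cell, had 2 strengthened regions, with Dox folds of 13.3 and 10.9 and No Dox folds of 6.57 and 4.02. The region 25.9 kb downstream of CCN1, a secreted matrix protein of the CCN family, was the strongest in level, at 24.0 in Dox and 10.4 in No Dox, and held no TEAD word. Single regions also lay near AMOTL2 and LATS2, both inhibitors of YAP and TAZ in the Hippo pathway, and near FJX1, with Dox folds of 15.8, 8.14 and 8.59 and No Dox folds of 7.41, 4.02 and 4.02. ASAP1, a GTPase-activating protein of ARF proteins, had 2, with Dox folds of 14.0 and 6.33 and No Dox folds of 4.66 and 2.97. The 10 genes had 74 shared regions in all, a count not limited to distal ones. Each had 1 or 2 strengthened regions, from the only shared distal region of ANKRD1 to 2 of 16 at ASAP1. Most of their shared distal regions did not reach the threshold. Of the 13 strengthened ones, 8 had a ratio under 2.5.

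**Figure D5:**
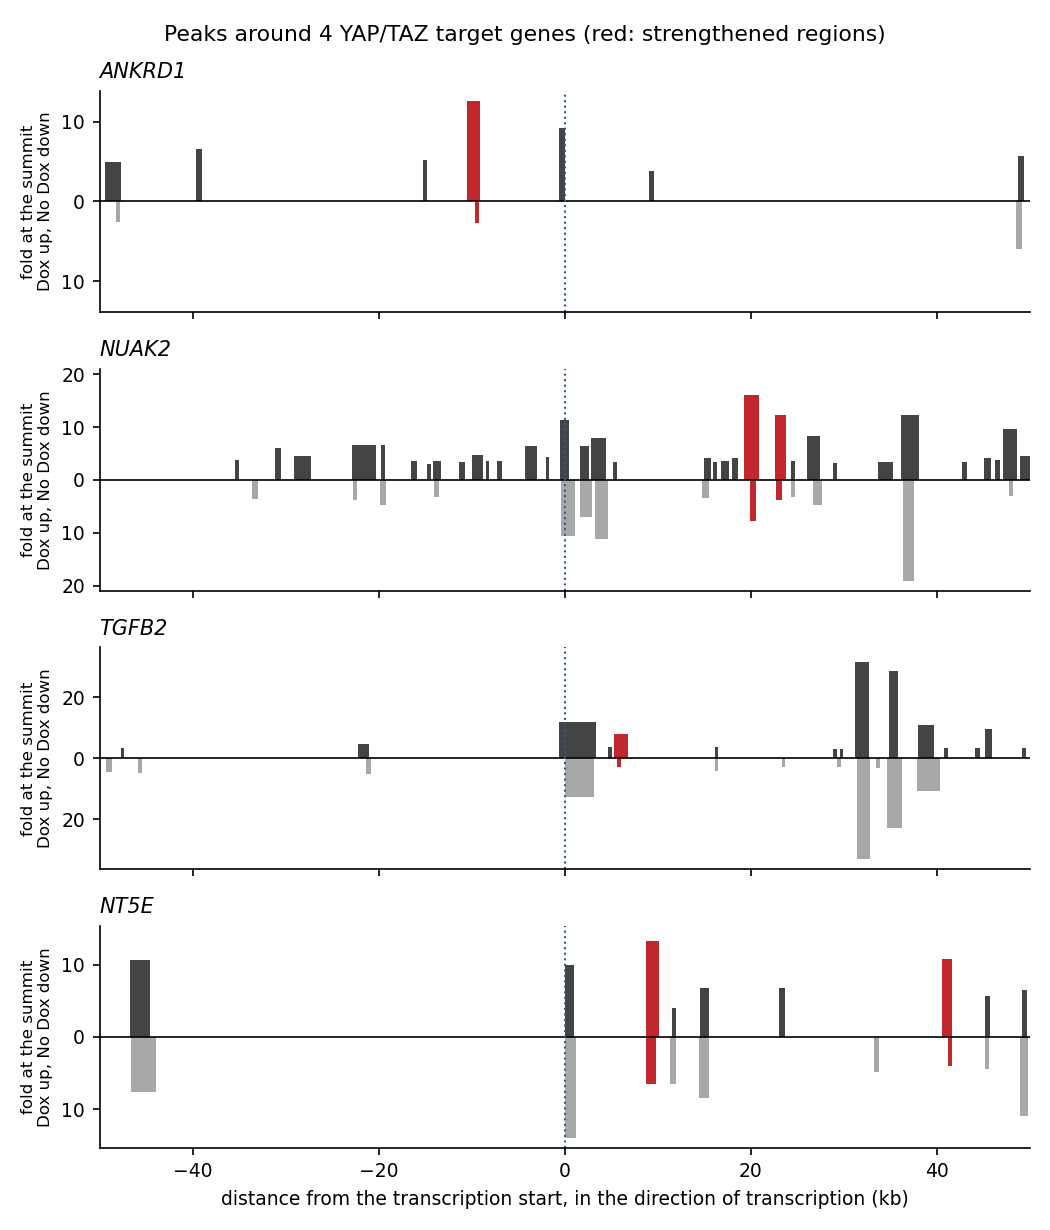
Peaks within 50 kb of the most upstream coding start of ANKRD1, NUAK2, TGFB2 and NT5E (horizontal, kb in the direction of transcription), with the fold at the summit drawn upward for Dox and downward for No Dox. Red bars are peaks of strengthened regions, such as the one upstream of ANKRD1 with 12.7 in Dox and 2.75 in No Dox, and the dark and light grey bars beside them are other Dox and No Dox peaks.

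The other lists had few strengthened regions each. The TEAD and Hippo pathway genes had 3 of 41 (7.32%, 1.54 to 19.9), of which 2 lay upstream of VGLL2, a TEAD cofactor, and 1 downstream of the start of TEAD3, itself a TEAD factor, and 2 regions of the list were weakened. The TGF-beta list had 3 of 45, the regions of TGFB2 and TGFBR2 above and one 91.2 kb from SMAD6, an inhibitory SMAD. Actin and adhesion genes had 3 of 47 (6.38%, 1.34 to 17.5), among them regions near ITGB1 (integrin beta 1) and ACTN1 (alpha-actinin), and 4 weakened regions. Cell cycle genes had 3 of 19 (15.8%, 3.38 to 39.6) and 1 weakened region. Of these 3, 2 lay 71.1 and 95.0 kb downstream of MYC and 1 in an intron of CDK6. Mesenchymal and matrix genes had 1 of 55 (1.82%, 0.0460 to 9.72), which lay in an intron of TRPC4 with POSTN (periostin) as the nearest start, and 2 weakened regions. The intervals of all lists in this paragraph include the strengthened share of 3.52% over all genes. Over all genes 641 of the 16114 regions were weakened.

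Single members also lay near ATF3, a stress-induced AP-1 partner (1 of 18 regions of its list), IL1A, an inflammatory cytokine (1 of 19, on a list with 2 weakened regions), CD55, an inhibitor of complement (1 of 11), and YWHAZ, on the housekeeping list (1 of 15). There was none among the 55 shared distal regions of basal epithelial and p63-linked genes (upper 95% limit 6.49%), where 3 were weakened, 2 near FAT2 and 1 near TP63. There was also none among 46 of epithelial junction genes (7.71%), 22 of luminal genes (15.4%, with 2 weakened), 20 of amino-acid biosynthesis genes (16.8%, with 1 weakened) and 17 of EGF receptor ligands (19.5%). The marker lists of immune cells and endothelium had none among 5 and 13. At the share of 3.52% seen over all genes, a list of 20 regions would hold less than 1 strengthened region, so a count of 0 or 1 in the small lists cannot be told apart from the background.

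The genes with most members were none of these. INSIG2, which restrains sterol synthesis, RXFP1, a relaxin receptor, NDST1, an enzyme of heparan sulfate synthesis, RIMS2 of the presynaptic zone, CELF4 and ATP10B, a lipid flippase, had 3 each. They had 3, 5, 7, 15, 23 and 43 shared distal regions, so all regions of INSIG2 were strengthened and 6.98% of those of ATP10B. The 3 INSIG2 regions lay 24.3, 34.7 and 80.1 kb downstream of its start, with Dox folds of 13.6, 20.3 and 7.91 and No Dox folds of 6.57, 7.41 and 2.75. Those of NDST1 lay 15.4 and 11.1 kb upstream and 8.87 kb downstream of a start, with Dox folds of 9.72, 18.3 and 21.0 and No Dox folds of 3.81, 5.72 and 8.90. A further 36 genes had 2 members, among them DDX59, an RNA helicase, NRCAM, an adhesion molecule of the immunoglobulin family, RPS29, a ribosomal protein, and NEK10, a kinase.

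The 10 members of highest ratio had Dox folds of 17.2 to 29.6 and No Dox folds of 2.97 to 4.66. The highest ratio, 6.70, belonged to a region in the first intron of CHRM3, a muscarinic acetylcholine receptor, with 25.5 in Dox and 3.81 in No Dox. A region 222 kb upstream of B3GALT2, a galactosyltransferase, had 29.6 in Dox and 4.45 in No Dox. A region 54.5 kb upstream of SLC39A10, a zinc importer, had 26.2 in Dox and 4.02 in No Dox, and the ROR1 region 19.2 in Dox and 2.97 in No Dox. The others had PRDX6 (a peroxiredoxin), TDRD15, JAKMIP2, RPS29, RAB28 (a small GTPase) and SMYD3 (a lysine methyltransferase) as the nearest coding gene. Of the 10, 5 held a TEAD word, 2 an AP-1 word alone and 3 neither, and 4 lay more than 100 kb from any coding start. Over all members the shares were 39.7% with a TEAD word, 13.6% with an AP-1 word alone and 46.7% with neither. A coding start lay within 100 kb of 53.9% of all members. At the JAKMIP2 region the strongest summits lay 1132 bp apart.

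In the whole series 84353 peaks were listed with Dox, at a median fold of 4.07, and 117740 without it, at a median fold of 3.81. Read depth could not be had from the lists, so the folds of the lists were not scaled to each other. As a check of the cell type, promoter peaks, within 1 kb of a start, were present for all 4 epithelial markers (CDH1, EPCAM, KRT8, KRT18) in both lists and for 5 of 6 basal mammary markers in Dox and 4 of 6 in No Dox, of which KRT14 was missing in both. Of immune markers 2 of 6 had one in Dox and 1 of 6 in No Dox, of endothelial markers 1 of 5 in both, and of adipocyte markers none of 2 in either.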

How the data were processed

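ATAC-seq of MCF10A cells with inducible TAZ-4SA was used as 1 peak list per group, Dox and No Dox, each pooled from 2 biological replicates. Reads had been aligned by the authors to hg38 (BWA), and MACS2 peaks called on the pooled replicates were kept by the authors at an FDR of 0.05. The deposited fold of a peak is a ratio of the pooled signal at its summit to the background, the deposited −log10 of its q-value is that of the peak caller, and the deposited score column and summit offset complete each peak. The study's differential regions, made with DESeq2 from binned reads, and its other assays were not analysed here.

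Peaks were merged, and distances, classes and nearest coding genes were taken from GENCODE release 44. Motifs were sought as fixed words on both strands within 100 bp of the strongest Dox summit in the hg38 sequence (pysam 0.24.0, Python 3.11.15, pandas 2.3.3). The p53/p63, NF-kB, glucocorticoid receptor and CTCF motifs were sought by their consensus. In all, 16 motifs and 17 gene lists were used. Shares carry exact Clopper-Pearson 95% intervals from scipy 1.17.1. No test was run, because 1 pooled list per group leaves no replicate error. Scripts were tested on simulated peaks. The members and lists were chosen with earlier results of these data known. Named were the 10 members of highest ratio, the 10 genes with most members, all members of YAP/TAZ targets and up to 3 genes of each other list. A region near 1 gene of the actin and adhesion list is not reported here. A total of 20 alternatives were tried.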

Additional observations from a re-analysis of the deposited data

How the results depend on the processing

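No paired analysis was possible because the replicates of each group were pooled into 1 list before peaks were called, and leaving out a replicate was not possible for the same reason. The TEAD share was higher in strengthened than in remaining regions under every alternative run. In strengthened against remaining regions it was 31.8% against 11% with a ratio of at least 1.5 (2916 members), and 42.9% against 12.9% with a ratio of at least 3 (233 members). It was 49.0% in strengthened against 19.5% in remaining regions for the core CATTCC, 29.0% against 10.4% at the No Dox summit, 26.1% against 6.93% within 50 bp, and 60.6% against 31.2% in whole regions. The remaining share alone moved to 11.6% with coding start sites only, 14.9% at q of 1e-05 or less, 13.7% with strongest peaks overlapping by 50%, 12.8% with strongest summits within 200 bp and 13.9% without chromosomes 1, 5 and 8. The AP-1 share of members was 11.2% at a ratio of at least 3, 12.9% within 50 bp, 40.2% in whole regions and 24.1% with summits within 200 bp. The members numbered 535 at q of 1e-05 or less, 639 with peaks overlapping by 50% and 691 without the 3 chromosomes.

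The distal intergenic share of members was 44.6% at a ratio of at least 3, 44.8% beyond 10 kb and 37.1% with coding start sites only. A Dox-only region lay within 50 kb of 68.1% (65.1 to 70.9) of members and 71.9% (71.4 to 72.5) of remaining regions. Within 10 kb the share of members was 33.0% with lists of equal length. It was 22.4% at q of 1e-05 or less and 21.9% without the 3 chromosomes. Summits lay within 100 bp in 52.8% of members at a ratio of at least 3, 62.8% with lists of equal length, 66.9% at q of 1e-05 or less, 62.4% with overlapping peaks and 76.9% where summits had to lie within 200 bp. The strengthened share of YAP/TAZ target regions was 23.6% (25 of 106, 15.9 to 32.8) at a ratio of at least 1.5. It was 2.83% (3 of 106, 0.588 to 8.05) at a ratio of at least 3 and 8.70% (6 of 69, 3.26 to 18.0) beyond 10 kb. Over all 28193 shared distal regions these ratios were reached by the 2916 and 233 members given above, and beyond 10 kb 764 of 20220 were members. This background also holds regions attached to no gene, unlike the one used for the main share. The intervals at a ratio of at least 3 and beyond 10 kb included the share of this background. The causes of these shifts were not tested, other than where the alternative itself changes the window or the members.

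What limits these results is the pooling of replicates, the low No Dox folds of the members and the unknown read depth. Folds of the lists were not scaled to each other. Divided by the median ratio, the rule took 1244 members with a TEAD share of 38.7%.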
